A study of Mus musculus with 16 samples.

Results

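The smooth-muscle contractile apparatus was followed through 10 of the 23467 gene symbols counted in the Drop-seq libraries: the actins Acta2 and Actg2, the myosin heavy chain Myh11 and light chain Myl9, the tropomyosins Tpm1 and Tpm2, the calponins Cnn1 and Cnn2, transgelin (Tagln) and desmin (Des). The genes were listed by name for this role, with earlier results of these data known. In Drop-seq, a cell and a barcoded bead meet in a droplet, and each captured transcript end is counted once through its unique molecular identifier (UMI). The libraries came from untreated end-stage mammary tumors of WB1P mice (WapCre;Brca1F/F;Trp53F/F) and WB1P-Myc mice (WapCre;Brca1F/F;Trp53F/F;Myc, where Myc is a Cre-conditional Col1a1invCAG-Myc-IRES-Luc knock-in), 2 mice per model, sorted as live cells. Both models therefore lack Brca1 and Trp53 where the Wap promoter has driven Cre, in mammary epithelium, and WB1P-Myc tumors add Myc. The stromal cells described here were defined by marker genes alone, and whether they carry the recombined alleles was not tested. Each model was handled as 1 sample split over 4 droplet fractions, and no fraction is tied to a mouse. The fractions are technical repeats. No test between the models was possible, since model and cell sample cannot be told apart, and with 1 sample per model none was run between the classes.

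Smooth muscle contracts when myosin filaments slide along actin filaments after phosphorylation of the myosin light chain. Tropomyosin and calponin lie along the actin filament and set its access to myosin, while desmin filaments anchor the apparatus in the cell. In tissue these proteins mark vascular smooth muscle and many pericytes, the mural cells around small vessels. Activated fibroblasts also make part of the set, Acta2 and Tagln above all, and in the mammary gland so do the basal myoepithelial cells. Transcription of most of the genes is driven by serum response factor, which binds a sequence known as the CArG box together with its myocardin-family partners.

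Barcodes with 450 to 4000 genes and under 20% mitochondrial UMIs were kept, 4798 in all (1307 from WB1P and 3491 from WB1P-Myc), and were placed into classes by marker genes, none of which is one of the 10. A barcode took the class whose markers had at least 3 UMIs and at least 3 times the UMIs of the next class. Stromal barcodes, gated on Col1a2 and Rgs5, with a UMI of the pericyte gene Rgs5 were called pericyte-like, and there were 61 (25 in WB1P and 36 in WB1P-Myc, 1.27% of kept barcodes), beside 517 other Col1a2-positive cells. Of the latter, 365 had more UMIs of matrix fibroblast genes such as Postn and Cthrc1, 112 had more of inflammatory fibroblast genes such as Cd34 and Dpp4, and 40 were undecided. Tumor cells numbered 2042 (1242 epithelial and 800 with glial markers such as Sox10), leukocytes 1029 and endothelial cells 96, and 1053 barcodes stayed unassigned. HiSeq libraries held 256985 to 1918672 UMIs for WB1P and 3814562 to 4960334 for WB1P-Myc. Median depth was 1662 UMIs in pericyte-like cells, 3020 in matrix-list fibroblasts, 2380 in inflammatory-list fibroblasts, 3054 in tumor cells and 1529 in leukocytes. Pairs of HiSeq libraries shared 0 or 1 listed barcode.

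The pericyte-like label was checked against 10 mural genes that the gate did not use. Their summed level was 2327 counts per 1000000 UMIs (CPM) in pericyte-like cells (1748 to 3461 across fractions), against 269 CPM in the other Col1a2-positive cells and 61.6 CPM in tumor cells. Higd1b stood at 603 against 0.541 CPM, the potassium channel subunits Abcc9 and Kcnj8 at 302 against 9.74 and 194 against 7.57 CPM, and Notch3 at 115 against 7.57 CPM. The summed level of 9 fibroblast genes, mostly Col1a1 and Col3a1, was 7247 CPM in pericyte-like and 20248 CPM in the other Col1a2-positive cells. Of these genes 8 were at least 2-fold lower in pericyte-like cells, while Col6a3 stood at 962 against 683 CPM. The median Rgs5 count per pericyte-like cell was 9 UMIs, and 6 of the 61 cells were gated on a single Rgs5 UMI. An Rgs5 UMI also occurred in 8.33% of endothelial cells (3.67 to 15.8), 2.28% of unassigned barcodes, 0.588% of tumor cells and 0.875% of leukocytes. Endothelial markers summed to 467 CPM in pericyte-like cells (259 to 765 across fractions) against 77.4 CPM in the other Col1a2-positive cells, with 5 of 10 genes seen. Endothelial cells had 14.2 CPM of Acta2, 351 CPM of Tpm1, 137 CPM of Cnn2 and 14.2 CPM of Des and no UMI of Myh11, Actg2 or Cnn1. The part of endothelial RNA in the pericyte-like levels was not tested. Skeletal muscle genes other than desmin had 1 UMI in pericyte-like cells, and the basal epithelial genes Krt14, Krt5, Trp63 and Oxtr together also had 1. Leukocyte markers summed to 21.5 CPM in pericyte-like and 93.6 CPM in the other Col1a2-positive cells. In dissociated tissue, smooth muscle cells and pericytes that both carry Rgs5 were not separated here.

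Promoter sequence was at hand for 7 of the 10 genes, from RefSeq on GRCm38.p6, as 250 bases before and 50 bases after the start site that the table gives each gene. Tagln, Myh11 and Actg2 were not matched. The CArG box was searched on both strands (it reads the same way on both), once with only A or T in its 6-base core and once allowing a single G or C there. Across the 27025 promoters of the table, 1.40% held the strict box and 8.65% the relaxed one. Among the 7 genes, Myl9 and Cnn2 held a strict box and Acta2 2 relaxed boxes, while no box was found in this window for Tpm1, Tpm2, Cnn1 and Des. The sequences of these 3 genes are shown as the ones in which a box was found, with the boxes in capitals. The Acta2 boxes end 75 and 25 bases before that start site on the minus strand, at chr19:34255438-34255467 and chr19:34255388-34255417, and both stretches also lie in exon 1 of a longer Acta2 transcript (Acta2-201). The Myl9 window is chr2:156775214-156775407 and the Cnn2 window chr10:79988350-79988583, both on the plus strand and cut before the first annotated base. In Myl9 the strict box ends 152 bases and the relaxed one 90 bases before the table's start site, which are 96 and 34 bases before the first base of the RefSeq gene, and the Cnn2 box ends 47 bases before both. A match is a description of these letters and not evidence of binding.
Acta2 far box: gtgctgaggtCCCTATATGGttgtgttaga
Acta2 near box: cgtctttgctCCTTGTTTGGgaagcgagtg
Myl9: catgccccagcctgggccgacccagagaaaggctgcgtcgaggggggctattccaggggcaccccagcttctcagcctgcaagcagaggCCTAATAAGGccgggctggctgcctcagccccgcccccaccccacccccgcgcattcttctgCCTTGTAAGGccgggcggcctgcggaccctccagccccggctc
Cnn2: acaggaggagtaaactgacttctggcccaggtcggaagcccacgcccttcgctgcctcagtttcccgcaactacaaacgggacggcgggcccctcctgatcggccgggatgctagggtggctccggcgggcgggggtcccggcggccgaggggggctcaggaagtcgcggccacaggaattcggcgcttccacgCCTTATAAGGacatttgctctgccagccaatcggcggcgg

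Pericyte-like cells carried the contractile set at the highest level of the main classes, with 9128 CPM over the 10 genes together, against 3932 CPM in matrix-list fibroblasts, 720 CPM in inflammatory-list fibroblasts, 374 CPM in tumor cells and 241 CPM in leukocytes. The genes did not move as a block. Myh11 and Des were far higher in pericyte-like cells than in any other class, Acta2, Actg2, Myl9 and Tpm2 were shared with matrix-list fibroblasts at a lower level, and Tagln, Tpm1 and Cnn2 differed by less than 2-fold between those 2 classes, and Cnn1 was too sparse to place. Against the other Col1a2-positive cells, 8 of the 10 genes were at least 2-fold higher, where 10.2% of all 8544 genes with at least 20 UMIs in the 2 pools were, and their median log2 ratio was 1.88 against 0.00 for all genes. All 10 passed that minimum, Myh11 (47 and 10 UMIs) through the pericyte-like cells alone. The 8 include the sparse Cnn1, with 4 and 17 UMIs. The ranges in parentheses after a ratio or a share of cells are 95% exact intervals and cover counting error only.

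**Figure D1:**
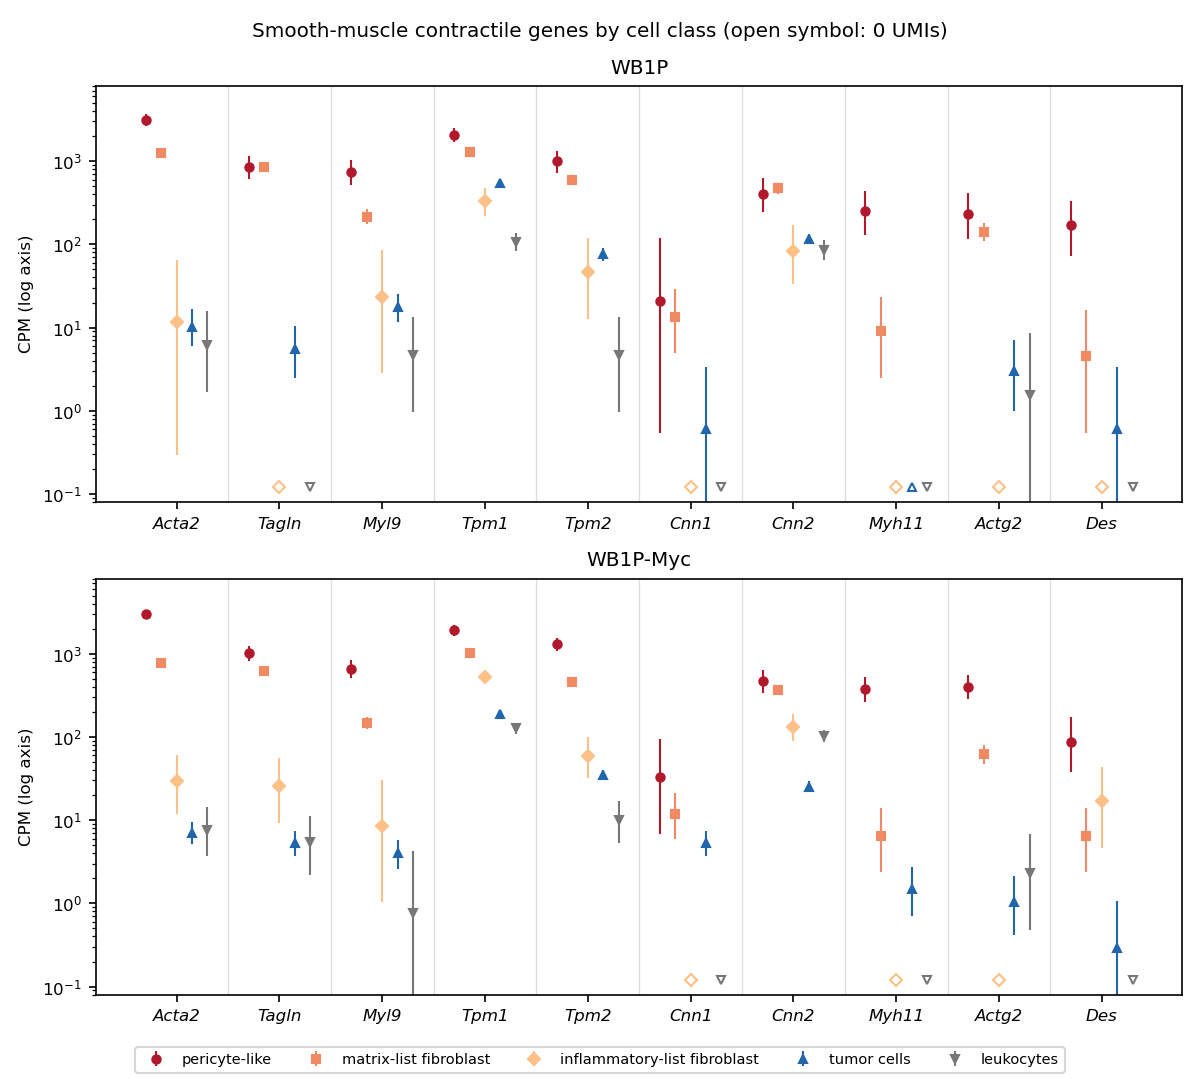
Levels of the 10 genes (CPM, log scale), with WB1P above and WB1P-Myc below, pooled over the cells of each of 5 classes, with 95% Poisson intervals and open symbols for 0 UMIs. In WB1P, Acta2 falls from 3127 CPM in pericyte-like cells to 1266 in matrix-list fibroblasts, 11.7 in inflammatory-list fibroblasts and 10.3 in tumor cells, and in WB1P-Myc from 3014 to 781, 29.7 and 7.07 CPM, while Tpm1 is above 100 CPM in every class shown.

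Of the actins, Acta2 encodes the α-smooth muscle actin by which activated fibroblasts are usually recognized. In the 3 WB1P fractions with at least 5 pericyte-like cells it stood at 2577, 2557 and 4546 CPM, and in the 4 WB1P-Myc fractions at 3205, 3243, 3332 and 2288 CPM. In the other Col1a2-positive cells of the same fractions it stood at 1363, 768 and 973 CPM and at 594, 541, 469 and 656 CPM. Every pericyte-like value thus lay above every value of the other cells. Such a separation over the 7 fractions held for 4 of the 10 genes (Acta2, Myl9, Myh11 and Des), where 0.62% of all genes showed it. For Myh11 and Des the lowest pericyte-like fraction (73.6 and 43.2 CPM) rested on very few UMIs. That Des value was a single UMI, yet it lay above the highest fraction of the other cells (21.0 CPM, and 15.9 CPM for Myh11). For both genes the separation thus asked for little more than a UMI in each fraction. The share of all genes counts genes with as few as 20 UMIs in the 2 pools, too sparse to be seen in all 7 fractions, so it is no yardstick for abundant genes. The pooled Acta2 level was 4.32-fold higher (log2 ratio 2.11, 1.95 to 2.27). Actg2, the γ-smooth muscle actin of gut and airway muscle, was scarcer and less even, at 73.6, 148 and 522 CPM in WB1P and 427, 495, 656 and 43.2 CPM in WB1P-Myc pericyte-like cells. The other Col1a2-positive cells had 143, 131 and 69.5 CPM and 40.4, 18.5, 30.5 and 89.8 CPM of Actg2, so the ranges overlapped and pericyte-like cells were higher in 5 of 7 fractions. Its pooled log2 ratio was 2.38 (1.87 to 2.88), while within WB1P it was 1.00 (-0.08 to 1.93) and within WB1P-Myc 3.16 (2.52 to 3.77).

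Of the motor subunits, Myh11, the smooth muscle myosin heavy chain, gave the widest contrast. Pericyte-like cells had 73.6, 295 and 373 CPM in WB1P and 570, 467, 328 and 173 CPM in WB1P-Myc. The other Col1a2-positive cells had 15.9, 5.23 and 0 CPM in WB1P and 0, 0, 15.2 and 2.99 CPM in WB1P-Myc. The ranges did not overlap, though the lowest pericyte-like value rested on very few UMIs. The pools held 47 UMIs in 61 pericyte-like cells and 10 UMIs in 517 other cells, a log2 ratio of 5.96 (4.96 to 7.11), and without WB1P-Myc fraction 3 it was 6.69. Myl9, a regulatory light chain of smooth muscle myosin, stood at 442, 934 and 745 CPM and at 1496, 577, 492 and 432 CPM in pericyte-like cells. In the other cells it stood at 265, 110 and 164 CPM and at 59.1, 124, 131 and 114 CPM. The lowest pericyte-like fraction exceeded the highest fraction of the other cells, and the pooled log2 ratio was 2.42 (2.06 to 2.77).

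The tropomyosins differed less between the classes. Tpm2 stood at 736, 1033 and 1193 CPM and at 641, 1759, 1530 and 777 CPM in pericyte-like cells, against 689, 361 and 442 CPM and 358, 334, 326 and 383 CPM in the other Col1a2-positive cells. It was higher in 7 of 7 fractions, although the ranges overlapped, with a pooled log2 ratio of 1.59 (1.34 to 1.84). Of all genes 1.42% were higher in 7 of 7, a share that also counts genes too sparse to be seen in every fraction. Tpm1, which many cell types splice into non-muscle forms, ranged from 663 to 2655 CPM in pericyte-like cells and from 823 to 1384 CPM in the others. The 3′ counts do not tell the spliced forms apart. Its pooled log2 ratio of 1.04 (0.85 to 1.23) sat at the 2-fold line and was 0.96 without WB1P fraction 3, 0.99 without WB1P fraction 4, 0.89 without WB1P-Myc fraction 2 and 0.94 without WB1P-Myc fraction 3.

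Among the actin-binding proteins, Tagln, an early marker of smooth muscle, was shared with the fibroblasts. Pericyte-like fractions gave 147, 1328 and 820 CPM in WB1P and 1353, 1182, 1256 and 389 CPM in WB1P-Myc. The other Col1a2-positive cells gave 785, 622 and 714 CPM and 432, 312, 540 and 512 CPM. WB1P fraction 2 and WB1P-Myc fraction 4 were thus lower in pericyte-like cells, and the remaining 5 were higher. The pooled log2 ratio of 0.88 (0.61 to 1.14) became 1.09 without WB1P fraction 2 and 1.03 without WB1P-Myc fraction 4. Over the alternatives other than left-out fractions it ran from 0.45 to 1.89. Cnn2, a calponin of both muscle and non-muscle cells, had 295 to 783 CPM against 246 to 520 CPM and a log2 ratio of 0.48 (0.07 to 0.85), below 2-fold. Its ratio ran from -0.057 to 1.05 over the alternatives other than left-out fractions. Cnn1, the calponin of differentiated smooth muscle, was too sparse to place: 4 UMIs in pericyte-like and 17 UMIs in the other cells gave a log2 ratio of 1.64 (-0.39 to 3.26), and 4 of 7 pericyte-like fractions were at 0.

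Desmin, the intermediate filament of muscle, stood at 147, 148 and 224 CPM in WB1P and at 71.2, 82.4, 164 and 43.2 CPM in WB1P-Myc pericyte-like cells. The other Col1a2-positive cells had 10.6, 0 and 0 CPM and 0, 9.27, 0 and 21.0 CPM, with no overlap, though the lowest pericyte-like value was 1 UMI. Counts were small, 16 UMIs against 12 UMIs, and the log2 ratio was 4.15 (2.97 to 5.36), or 5.29 without WB1P-Myc fraction 4 and 1.85 when a mural list of 2 UMIs defined the pericyte-like class. Skeletal muscle also makes desmin, and the 7 other skeletal muscle genes checked had the 1 UMI given above.

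**Figure D2:**
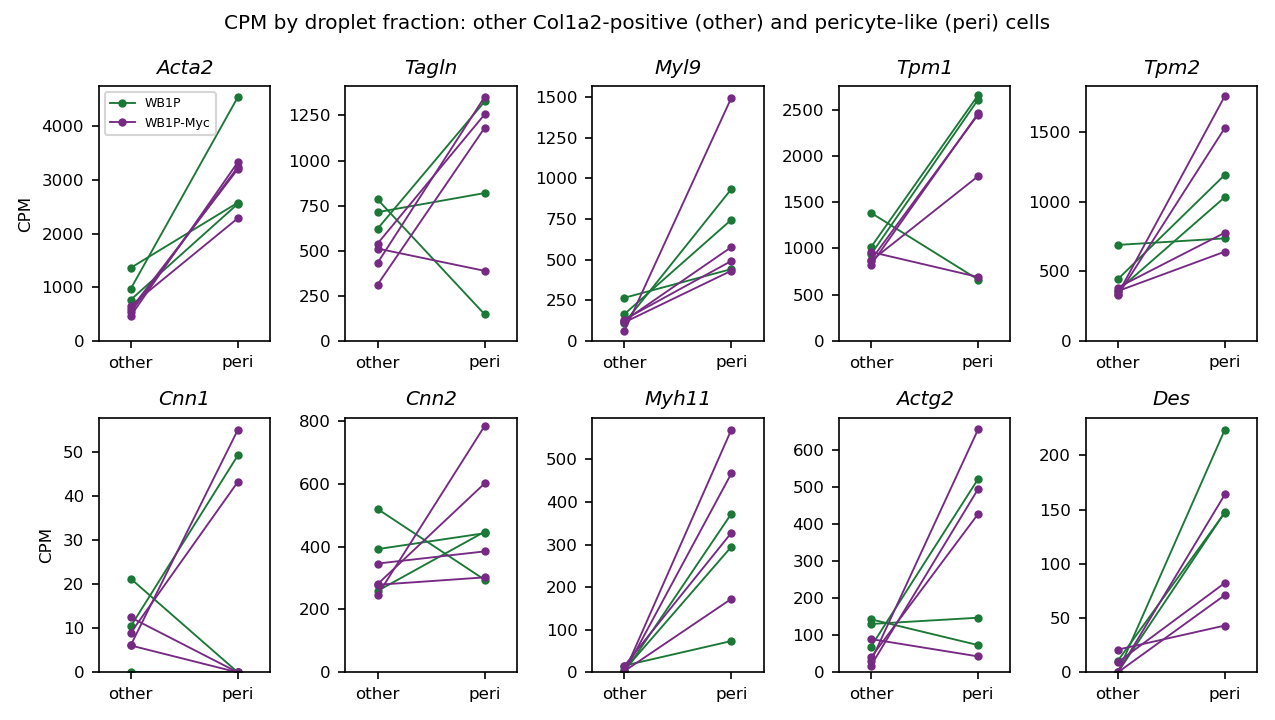
Level of each gene (CPM) by droplet fraction in pericyte-like cells and in the other Col1a2-positive cells, with each point 1 fraction with at least 5 cells of each group and a line joining the values of 1 fraction. The 2 classes separate for Acta2, Myl9, Myh11 and Des and overlap for the other 6 genes.

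The contrast between the 2 stromal groups was also taken within each model. In WB1P-Myc, 7 of 8 genes with at least 20 UMIs were at least 2-fold higher in pericyte-like cells (11.1% of all genes), with a median log2 ratio of 2.15. Myh11 (35 and 6 UMIs) met the minimum there through the pericyte-like cells alone. In WB1P it was 2 of 7 (Acta2 and Myl9, against 11.5% of all genes), with a median of 0.98. Tpm2 at 0.98 and Actg2 at 1.00 lay just under the 2-fold line in WB1P. Myh11, with 12 against 4 UMIs, and Des, with 8 against 2 UMIs, fell below the UMI minimum in WB1P but had log2 ratios of 5.10 (3.38 to 7.19) and 5.52 (3.19 to 8.79), against 6.37 and 3.51 (1.96 to 5.00) in WB1P-Myc. The 9 fibroblast genes summed to 6781 CPM in WB1P and 7486 CPM in WB1P-Myc pericyte-like cells. The gate gene Col1a2 was also lower in WB1P, at 4246 against 9978 CPM. Dcn, at 570 against 43.5 CPM (27 and 4 UMIs), and Lum, at 84.5 against 10.9 CPM (4 and 1 UMIs), were higher in WB1P. The difference between the models in this contrast, and the part of fibroblast RNA in it, were not tested.

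**Figure D3:**
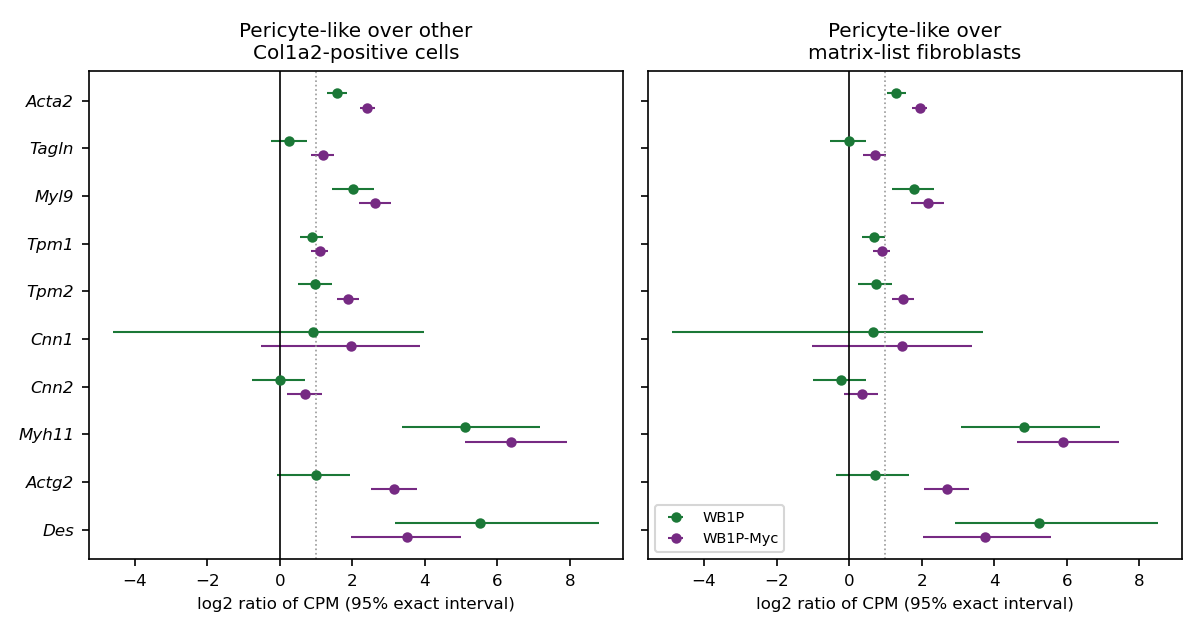
Log2 ratios of CPM with 95% exact intervals for each gene in WB1P and WB1P-Myc, for pericyte-like over other Col1a2-positive cells (left) and over matrix-list fibroblasts (right), with the dotted line at 2-fold. On the left Actg2 lies at 1.00 in WB1P and 3.16 in WB1P-Myc, and Myh11 and Des lie beyond the other genes in both models.

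The MiSeq tables carry the same fraction names, and the paper states that the libraries went to both instruments. These tables nevertheless listed mostly other barcodes (2 to 11 shared with HiSeq per fraction), held 13 pericyte-like and 130 other Col1a2-positive cells and gave a narrower contrast. Only Myl9 (878 against 169 CPM) was at least 2-fold higher among the 7 genes with at least 20 UMIs, near the 10.8% of all genes, and the median log2 ratio was 0.45. Myh11, Des and Cnn1 fell below the minimum here, so this median is not over the same genes as the 1.88 of the HiSeq tables. Acta2 stood at 1810 against 964 CPM, Tagln at 548 against 402 CPM and Tpm1 at 1426 against 1297 CPM. Tpm2, at 439 against 553 CPM, and Cnn2, at 274 against 285 CPM, were not higher. Between these 2 stromal classes, Myh11 had all its UMIs in pericyte-like cells, with 6 UMIs in 13 cells against 0 in 130, and Des had 2 against 0. Tumor cells of the MiSeq tables held 10 Myh11 UMIs, at 7.50 CPM (3.59 to 13.8). None of the 13 pericyte-like barcodes was listed in the HiSeq tables, and their median depth was 919 UMIs.

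Part of the distance to the other Col1a2-positive cells lay in the inflammatory-list fibroblasts, which had little of Acta2, Tagln and Myl9 and no UMI of Myh11, Actg2 or Cnn1, but carried Tpm1 and Cnn2. Against matrix-list fibroblasts alone, 7 of 10 genes were at least 2-fold higher in pericyte-like cells (9.34% of all genes), with a median log2 ratio of 1.47, and Myh11 again met the minimum through the pericyte-like cells alone. Myh11 (5.54), Des (4.31), Myl9 (2.02), Actg2 (1.97), Acta2 (1.70) and Tpm2 (1.24) kept log2 ratios above 1 there, as did the sparse Cnn1 (1.22, -0.81 to 2.84). Tpm1 (0.83), Tagln (0.46) and Cnn2 (0.15, -0.25 to 0.53) did not.

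Within the fibroblasts, the matrix-list cells held Acta2 at 938 CPM and Tagln at 699 CPM, against 24.9 CPM and 18.7 CPM in the inflammatory-list cells, log2 ratios of 5.23 (4.25 to 6.45) and 5.22 (4.10 to 6.67). Myl9 (170 against 12.5 CPM), Tpm2 (504 against 56.1 CPM) and Cnn2 (402 against 118 CPM) followed with log2 ratios of 3.77, 3.17 and 1.76. Tpm1, at 1107 against 477 CPM, differed least with 1.21. Actg2 had 121 UMIs in matrix-list and 0 in inflammatory-list cells, at least 9.39-fold higher when the 0 is set to a floor of 3 counts over the class. All 7 genes with at least 20 UMIs were at least 2-fold higher, where 12.8% of all genes were, though Acta2, Tagln, Myl9, Tpm2 and Actg2 met the minimum through the matrix-list cells alone, so that nothing is read from the count. Myh11, with 10 UMIs in matrix-list and 0 in inflammatory-list cells, could not be compared, and Des had 8 UMIs against 4. The pooled levels of these 7 genes thus ran from pericyte-like over matrix-list to inflammatory-list cells, with the first step within counting error for Cnn2. In WB1P alone the first step was absent for 2 genes by fraction means. Tagln stood at 765 CPM in pericyte-like against 863 CPM in matrix-list cells, and Cnn2 at 395 against 456 CPM. In WB1P-Myc these means were 1045 against 627 CPM and 518 against 369 CPM.

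Tumor cells carried little of the set. All 9 genes with at least 20 UMIs were at least 2-fold higher in pericyte-like cells (16.4% of all genes), with a median log2 ratio of 6.70, where Myh11 and Actg2 met the minimum through the pericyte-like cells alone. Acta2 stood at 3052 against 7.70 CPM (8.63), Myh11 at 338 against 1.18 CPM (8.15, or 9.00 without WB1P-Myc fraction 4), Actg2 at 345 against 1.42 CPM (7.92, or 8.56 without WB1P fraction 3), Tagln at 962 against 5.33 CPM (7.50) and Myl9 at 689 against 6.63 CPM (6.70). The Acta2 ratio ran from 5.65 to 13.4 over the alternatives other than left-out fractions. Des, at 115 against 0.355 CPM, rested on 16 and 3 UMIs, with a log2 ratio of 8.34 (6.53 to 10.76). The genes with non-muscle use were nearer: Tpm2 4.79, Cnn2 3.36 and Tpm1 2.91, besides Cnn1 at 2.71 (0.76 to 4.19). The other Col1a2-positive cells exceeded tumor cells by at least 2-fold for the same 9 of 9 genes (15.6% of all genes), with a median of 3.20 against -0.30 for all genes, where Actg2 (122 and 12 UMIs) met the minimum through the Col1a2-positive cells alone. Myh11 only just met it, with 10 UMIs in each pool. Cnn1 was the lowest of the 9 genes, at 1.07, and fell below 2-fold without WB1P fraction 2 (0.74) or WB1P-Myc fraction 3 (0.93).

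Leukocytes, which do not build this apparatus although they make Cnn2, served as the background of free RNA. Their Tpm1, at 120 CPM and seen in 18.2% of them, stood far above their Acta2, and whether it is free RNA or their own was not tested. Acta2 in tumor cells did not exceed the leukocyte level, at 7.70 against 7.21 CPM (log2 ratio 0.09, -0.75 to 1.04), nor did Tagln at 5.33 against 3.60 CPM (0.56, -0.60 to 1.96). Tpm1 (261 against 120 CPM, log2 ratio 1.11), Tpm2 (43.1 against 8.24 CPM, 2.39) and Myl9 (6.63 against 2.06 CPM, 1.69) did, and Cnn1 had 37 UMIs against 0. In tumor cells 31.2% of all genes were at least 2-fold higher, beside these 4 of 7, and Myl9, Tpm2 and Cnn1 met the minimum of 20 UMIs through the tumor cells alone, so that nothing is read from the count. Cnn2 was lower in tumor cells (43.2 against 97.3 CPM, -1.17), as were 16.6% of all genes by at least 2-fold. In the MiSeq tables, by contrast, Acta2 stood at 36.0 CPM in tumor cells (26.5 to 47.7, 48 UMIs) against 4.06 CPM in leukocytes (0.103 to 22.6, 1 UMI), and the 148 tumor barcodes left out for having over 4000 genes held it at 26.6 CPM (22.5 to 31.3), beside 19.0 CPM (0.482 to 106) from 1 UMI in 3 such leukocyte barcodes. Tagln had 2 UMIs in tumor cells and 0 in leukocytes of the MiSeq tables and stood at 12.3 CPM (9.56 to 15.6) in the left-out tumor barcodes, with 0 UMIs in the 3 leukocyte barcodes. The Acta2 interval of tumor cells thus lay above that of leukocytes in the MiSeq tables and overlapped it in the HiSeq barcodes, kept or left out.

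Within WB1P-Myc tumor cells, those with epithelial markers had more Tpm2 than those with glial markers, 65.7 against 7.58 CPM, a log2 ratio of 3.12 (2.53 to 3.75). Cnn2 (37.8 against 14.0 CPM, 1.43) and Tagln (8.05 against 2.81 CPM, 1.52) were also at least 2-fold higher, 3 of 7 genes where 10.3% of all genes were (Tagln, with 26 and 10 UMIs, met the minimum through the epithelial cells alone), and Tpm1 stood at 251 against 135 CPM (0.89). Epithelial tumor cells with a UMI of a basal gene (Krt14, Krt5, Trp63 or Oxtr) had more Tpm2 than those without, 144 against 53.4 CPM in WB1P and 113 against 37.6 CPM in WB1P-Myc. Acta2, the usual marker of myoepithelial cells, stood at 7.21 against 11.5 CPM in WB1P and 14.1 against 5.94 CPM in WB1P-Myc, so that no level above 15 CPM was seen in either group. Cells with a basal UMI were also deeper, with a median of 3871 against 1732 UMIs in WB1P and 4171 against 2946 UMIs in WB1P-Myc.

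In single cells the set was seen in pieces. An Acta2 UMI was present in 83.6% of pericyte-like cells (71.9 to 91.8), 50.1% of matrix-list fibroblasts, 5.36% of inflammatory-list fibroblasts and 2.60% of tumor cells, against 1.36% of leukocytes. With every cell thinned to 600 UMIs, which no cell of these classes fell short of, the shares were 63.9%, 30.4%, 0.893%, 0.490% and 0.292%. Tpm1 was seen in 76.2% of matrix-list fibroblasts and 77.0% of the shallower pericyte-like cells, or 39.7% and 49.2% at 600 UMIs, and reached 41.6% of tumor cells against 18.2% of leukocytes. Tagln, at 50.8% of pericyte-like and 42.5% of matrix-list cells, and Cnn2, at 50.8% and 50.1%, were close at full depth, and Cnn2 was in 14.7% of leukocytes and 12.0% of tumor cells. Thinning did not change the order for Tagln (31.1% and 21.9%) or Cnn2 (19.7% and 16.2%). Myl9 (47.5% against 27.4%) and Tpm2 (65.6% against 50.7%) had wider gaps, with 0.389% and 1.36% of leukocytes positive.

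The rarer genes marked fewer pericyte-like cells. Myh11 was seen in 21.3% (11.9 to 33.7), Actg2 in 24.6% (14.5 to 37.3), Des in 18.0% (9.36 to 30.0) and Cnn1 in 6.56% (1.82 to 15.9). In matrix-list fibroblasts the shares were 1.92%, 9.32%, 1.10% and 3.01%. No inflammatory-list cell had a UMI of Myh11, Actg2 or Cnn1, which allows up to 2.68% of 112 cells with a UMI at this depth, and 0 of 1029 leukocytes had Myh11, Des or Cnn1, which allows up to 0.292%. At 600 UMIs a cell the pericyte-like shares were 11.5% for Myh11, 9.84% for Actg2 and 8.20% for Des, and the matrix-list shares 0.548%, 3.29% and 0.274%. At this depth a pericyte-like cell without a Myh11 UMI cannot be taken to lack the transcript.

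Counting genes per cell, pericyte-like cells had a median of 5 of the 10 and at most 9, with at least 3 seen in 73.8%. Matrix-list fibroblasts had a median of 3, with at least 3 in 52.9%, and inflammatory-list fibroblasts a median of 1, with at least 3 in 10.7%. The shares with at least 3 were 4.70% in tumor cells and 0.486% in leukocytes. After thinning to 600 UMIs they were 50.8%, 23.6%, 0.893%, 0.294% and 0%. The 13 pericyte-like cells with a Myh11 UMI more often had Tagln than the 48 without (76.9% against 43.8%), as well as Myl9 (76.9% against 39.6%), Actg2 (46.2% against 18.8%) and Acta2 (100% against 79.2%). Des went the other way, at 15.4% against 18.8%. Cells with Myh11 also had more UMIs, with medians of 2553 against 1442, and the part of depth in these shares was not tested.

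The UMIs were concentrated in few cells. Of the 425 Acta2 UMIs in pericyte-like cells, 7 of 61 cells held 50%, and for Myh11 it was 3 cells, with 34.0% of its 47 UMIs in 1 of them. That WB1P-Myc cell carried 189 UMIs of the set among 2621 UMIs in all, with 58 of Acta2, 60 of Tpm1 and 16 of Myh11. The highest WB1P cell carried 102 of 3785. In matrix-list fibroblasts 28 of 365 cells held 50% of the Acta2 UMIs. Without the highest pericyte-like cell of each model, a setting chosen after seeing the data, 7 of the 10 genes rather than 8 were at least 2-fold higher than in the other Col1a2-positive cells, with a median log2 ratio of 1.59. Tpm1 was the gene lost, with a log2 ratio of 0.55, while Myh11 stood at 5.18, Des at 4.12, Myl9 at 2.17 and Acta2 at 1.81.

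The members can also be read against their own protein families, as the share of family UMIs that the named genes take. These families were drawn up after levels had been seen, and UMI counts of genes in a family were compared without scaling to length, as each captured transcript end is counted once. Acta2 and Actg2 made up 24.0% of actin UMIs (with Actb and Actg1) in pericyte-like cells, 12.5% in matrix-list fibroblasts, 0.588% in inflammatory-list fibroblasts and 0.186% in tumor cells. Myh11 made up 39.2% (30.4 to 48.5) of the UMIs of Myh9, Myh10 and Myh11 in pericyte-like cells and 1.19% in matrix-list fibroblasts. Tumor cells had 0.365% there. Even in pericyte-like cells, then, the non-muscle actins and heavy chains made up most of their families. Myl9 took 19.7% of its family with Myl12a and Myl12b in pericyte-like cells, 8.88% in matrix-list fibroblasts and 0.540% in tumor cells. Tpm1 and Tpm2 took 54.7%, 51.0% and 25.9% of the tropomyosins. That share counts every spliced form, non-muscle forms of Tpm1 included, and is not a smooth-muscle share. Tagln took 56.5% of transgelin UMIs in pericyte-like cells and 64.2% in matrix-list fibroblasts, but 3.75% in inflammatory-list fibroblasts and 2.11% in tumor cells. Cnn1 was a minor calponin everywhere, at 3.74% (1.03 to 9.30) in pericyte-like cells.

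**Figure D4:**
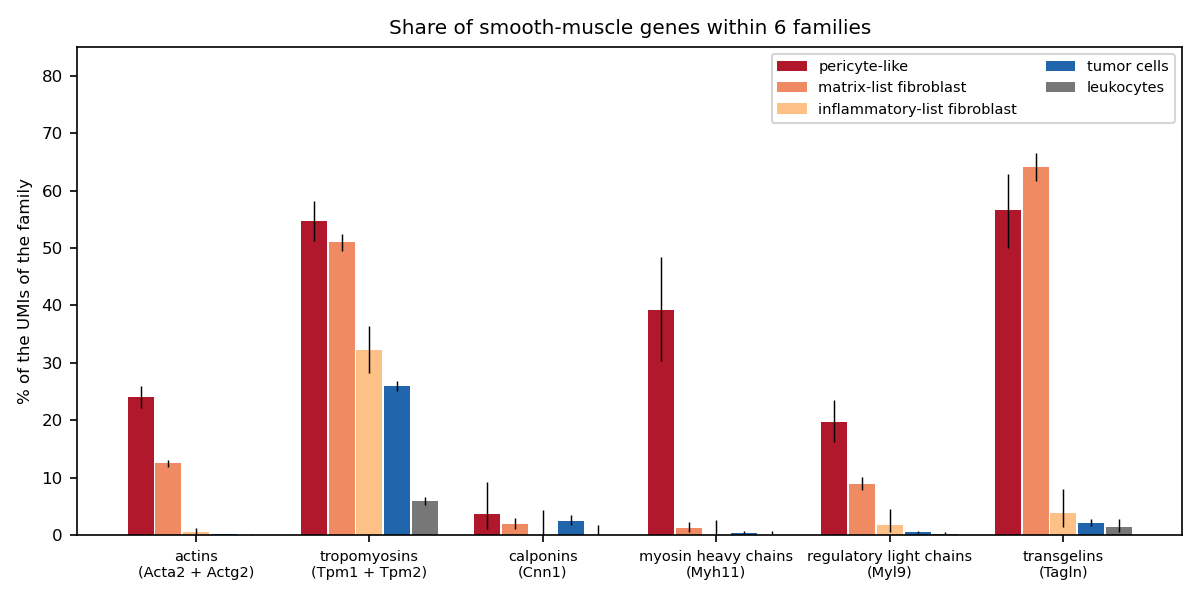
Share of each protein family's UMIs (percent) taken by the genes named under it, by cell class, with 95% Clopper-Pearson intervals. The tropomyosin share counts every spliced form of Tpm1 and Tpm2, non-muscle forms included. For myosin heavy chains the pericyte-like share of 39.2% stands above 1.19% in matrix-list fibroblasts, while for transgelins the matrix-list share (64.2%) is not below the pericyte-like one (56.5%).

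Between the models, the pooled levels in pericyte-like cells (25 and 36 cells) did not differ by 2-fold for any of the 8 genes with at least 20 UMIs, where 9.06% of all genes were higher and 7.64% lower in WB1P-Myc. The WB1P-Myc level of Acta2 was 3014 CPM and the WB1P level 3127 CPM (log2 ratio -0.05, -0.35 to 0.24), and Tpm1 at 1904 and 2070 CPM (-0.12, -0.49 to 0.25). Myl9 (664 and 739 CPM, -0.16), Tagln (1023 and 845 CPM, 0.28), Cnn2 (468 and 401 CPM, 0.22), Tpm2 (1295 and 993 CPM, 0.38) and Myh11 (381 and 254 CPM, 0.59) had intervals that included 0. The interval of Actg2 was wide, at 0.79 (-0.21 to 1.91), and its ratio was 1.77 without WB1P fraction 4 and 1.17 without WB1P-Myc fraction 4. Tagln reached 1.09 without WB1P fraction 3. The count of 0 depended on the setting. It was 3 of 8 by means of cell CPMs, 2 of 8 with a 5-fold lead and 2 of 5 thinned to 600 UMIs, each higher in WB1P-Myc, while in the MiSeq tables both genes with enough UMIs, Acta2 and Tpm1, were lower in WB1P-Myc, with a median log2 ratio of -1.32. The MiSeq values rest on 4 WB1P and 9 WB1P-Myc pericyte-like cells. The share of all genes was not taken under these settings, so nothing is read from their counts. Des had 8 UMIs in each model, or 87.0 CPM against 169 CPM for WB1P.

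In the other Col1a2-positive cells, by contrast, the genes leaned one way. All 7 with at least 20 UMIs were lower in WB1P-Myc, with a median log2 ratio of -0.64 against 0.08 for all genes. The share of all genes lower by any amount was not taken. The 7 genes were counted in the same cells and are not separate observations, so nothing is read from the count. Only Actg2 was at least 2-fold lower (45.1 against 116 CPM, -1.37, or -1.97 without WB1P-Myc fraction 4), 1 of 7 where 4.71% of all genes were and 11.3% were at least 2-fold higher. Acta2 stood at 565 against 1046 CPM (-0.89, -1.05 to -0.73), and its WB1P-Myc fractions (469 to 656 CPM) lay below all 3 WB1P fractions (768 to 1363 CPM). Myl9 was at 107 against 181 CPM (-0.76), Tagln at 450 against 702 CPM (-0.64), Tpm2 at 350 against 503 CPM (-0.52), Cnn2 at 288 against 399 CPM (-0.47) and Tpm1 at 881 against 1122 CPM (-0.35). Without WB1P fraction 3, Acta2 (-1.08) and Myl9 (-1.04) also passed 2-fold. The matrix-list cells made up 224 of 332 other Col1a2-positive cells in WB1P-Myc and 141 of 185 in WB1P. Within them the median was -0.45 and Acta2 was at -0.70 (781 against 1266 CPM). There too Actg2 (-1.18) was the 1 gene of 7 at least 2-fold lower, against 4.46% of all genes. In the MiSeq tables Acta2 was not lower in WB1P-Myc (0.13), nor was Cnn2 (0.44).

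In tumor cells 4 of 7 genes were at least 2-fold lower in WB1P-Myc. Cnn2 stood at 25.3 against 117 CPM (-2.21), Myl9 at 3.98 against 17.6 CPM (-2.14), Tpm1 at 190 against 550 CPM (-1.53) and Tpm2 at 35.2 against 75.7 CPM (-1.10). Of all genes 14.8% were at least 2-fold lower. Cnn1, at 36 UMIs against 1, had a log2 ratio of 3.13 (0.56 to 8.47) but met the minimum through the WB1P-Myc cells alone. The glial-marker cells are nearly all in WB1P-Myc (798 of 800), so epithelial tumor cells were also compared alone. There Cnn2 (-1.62), Myl9 (-2.03) and Tpm1 (-1.13) stayed at least 2-fold lower (16% of all genes were; Myl9, with 14 and 29 UMIs, met the minimum through WB1P alone), while Tpm2 did not (-0.22, -0.55 to 0.11). Cnn1 had 21 UMIs against 1 there.

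Genes around the apparatus were taken from 4 lists. Of the regulators and anchors of the filaments, 14 of 18 had at least 20 UMIs and 7 were at least 2-fold higher in pericyte-like than in other Col1a2-positive cells, with a median log2 ratio of 0.93 (10.2% of all genes were that high). Ppp1r14a (24 and 2 UMIs) and Lmod1 (28 and 10 UMIs) met the minimum through the pericyte-like cells alone. The highest were Ppp1r14a, an inhibitor of myosin phosphatase (172 against 1.08 CPM, 7.32), the filament nucleator Lmod1 (201 against 5.41 CPM, 5.22) and Mylk, the kinase that phosphorylates the myosin light chain (668 against 22.2 CPM, 4.91). Csrp1 (1.89) and caldesmon, Cald1 (3720 against 1568 CPM, 1.25), followed. The lowest were Rock1 (0.26), filamin A, Flna (0.37), smoothelin, Smtn (0.48, -1.02 to 1.69), Actn1 (0.66) and the phosphatase subunit Ppp1r12a (0.74).

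Of the widely expressed relatives of the set, 1 of 11 was at least 2-fold higher, near the 10.2% of all genes, with a median log2 ratio of 0.77 against 0.00 for all genes. That gene was Tpm4 (1781 against 712 CPM, 1.32), followed by Myl12b (0.98), Tagln2 (0.93), Myl12a (0.87) and Myl6 (0.77). The non-muscle heavy chains Myh9 (474 against 466 CPM, 0.02) and Myh10 (50.3 against 71.4 CPM, -0.51, -1.85 to 0.58) and Tpm3 (0.22), Cnn3 (0.40) and Actg1 (0.44) were the lowest. Of the transcription factors, 5 of 8 measured had enough UMIs. Mef2c (172 against 52.5 CPM, 1.72) and Nr2f2 (144 against 44.9 CPM, 1.68) were at least 2-fold higher, and stood at 284 and 80.6 CPM in endothelial cells and at 207 and 4.12 CPM in leukocytes. Srf itself rested on 5 and 46 UMIs (0.53, -1.16 to 1.86), Tead3 was at 0.07 and Tead1 at -0.48 (-1.51 to 0.39). Of the channels and receptors, 4 of 5 with enough UMIs and a ratio were at least 2-fold higher, where 10.2% of all genes were, though Gucy1a3 (25 and 9 UMIs) met the minimum through the pericyte-like cells alone. The 4 were the subunits of the nitric oxide receptor, Gucy1a3 (180 against 4.87 CPM, 5.20) and Gucy1b3 (86.2 against 7.57 CPM, 3.51), the endothelin receptor Ednra (1.73) and the angiotensin receptor Agtr1a (1.48, -0.53 to 3.07, from 4 and 19 UMIs). The adrenergic receptor Adra2a was at 0.87 (-1.10 to 2.38). Ptger3, with 0 UMIs in pericyte-like and 24 in the other cells, met the minimum through the other cells but gave no ratio.

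**Figure D5:**
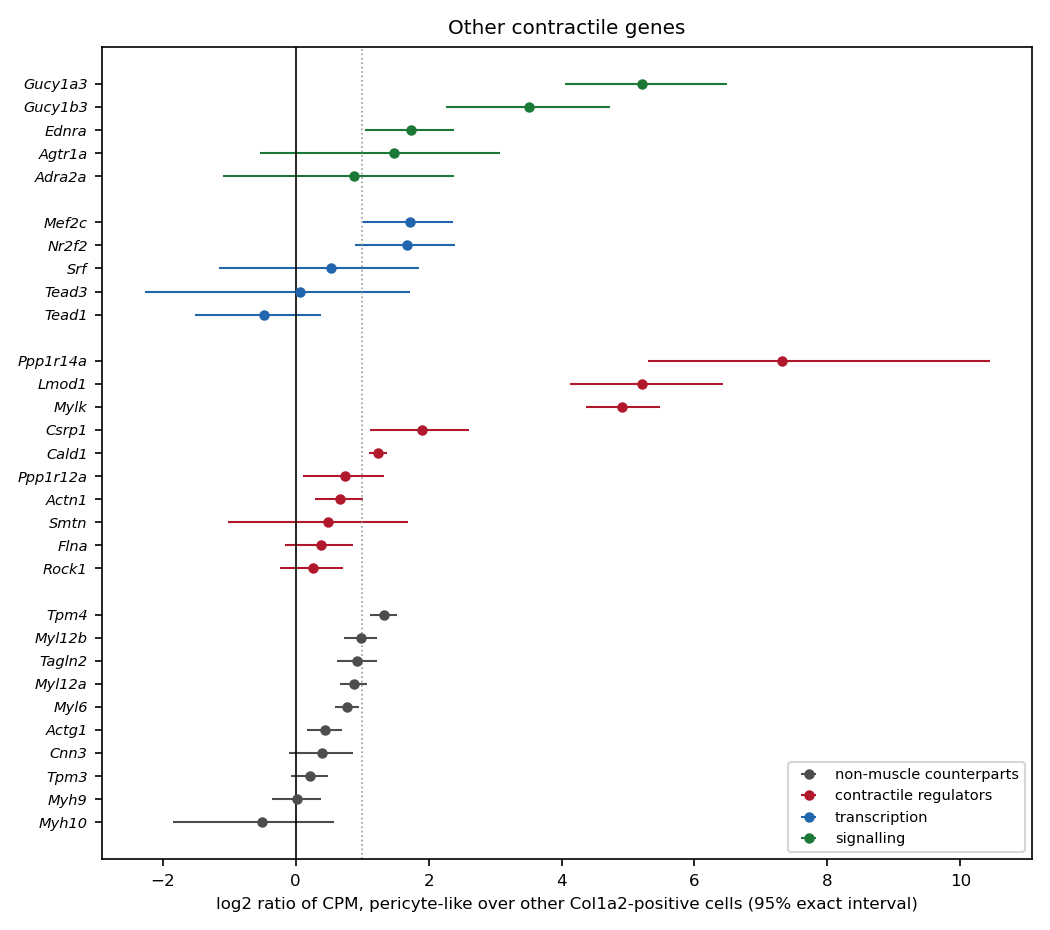
Log2 ratios of pericyte-like over other Col1a2-positive cells, both models pooled, for the genes named from 4 lists around the apparatus, with 95% intervals. Ppp1r14a (7.32), Lmod1, Gucy1a3 and Mylk lie farthest to the right and Myh10 (-0.51) and Tead1 (-0.48) below 0.

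The genes whose level ran closest to the mean of the 10 were found across 15 pools of class and model, as a description. Of 10292 genes, Wisp1 (Pearson r 0.92), Pdgfrb (0.92), Kctd11 (0.91), Gpc4 (0.90), Ror2 (0.90), Itga1 (0.89), Heyl (0.88), Rgs4 (0.88), Ednra (0.88) and Rnf170 (0.88) had the highest correlations. The pools share libraries, and the stromal pools have the highest levels. Pdgfrb, the receptor through which pericytes are recruited, stood at 381 CPM in pericyte-like cells, 123 CPM in matrix-list fibroblasts and 2.84 CPM in tumor cells. Itga1 stood at 567, 47.9 and 7.70 CPM, and Wisp1 at 194, 171 and 7.82 CPM.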

How the data were processed

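Drop-seq of 2 tumor models gave 16 deposited tables of raw UMI counts per gene symbol and barcode, 1000 barcodes each, made by the authors with dropseq-tools; the submitters' processing notes also name Scanpy and mm10, and the aligner was not given in the sources used here. No normalization had been applied. The HiSeq tables gave the values and the MiSeq tables of the same fraction names an alternative (the paper states that the libraries went to both instruments), and a merged table was not used. Groups followed the labels. UMIs were summed over the cells of a class and scaled to 1000000 UMIs (CPM), with exact Poisson intervals for levels, exact conditional binomial intervals for ratios and Clopper-Pearson intervals for shares. Genes needed at least 20 UMIs in the 2 pools to be counted, and a ratio was counted from 2-fold. No doublet caller was run; the limit of 4000 genes and the 3-fold lead of a marker list stood in for it. Replicate droplet fractions are technical, so no p-value is given. All 10 genes are named; of each further list the 5 highest and 5 lowest ratios, and the 10 genes most like the set, on log2(CPM + 10) over genes with at least 100 UMIs. The members, lists and comparisons were chosen with earlier results of these data known. The ratio code was tested on simulated data. Python 3.11.15, numpy 2.4.6, scipy 1.17.1, pandas 2.3.3 and matplotlib 3.10.9 were used. Alternatives covered other gates, filters, minimums, thinning, cell means, the MiSeq tables and each fraction left out.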

Additional observations from a re-analysis of the deposited data

Results flagged for a closer look

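Of 28 groups of 4 fractions examined for a sample far from the others, 3 were flagged, and about 1 in 20 such groups would be by chance. Acta2 in pericyte-like cells of WB1P-Myc was lowest in fraction 4, at 2288 CPM, against 3205, 3243 and 3332 CPM in the other fractions. Myl9 in pericyte-like cells of WB1P-Myc was highest in fraction 1, at 1496 CPM, against 432, 492 and 577 CPM. Each of these fractions held 7 pericyte-like cells. Tpm1 in tumor cells of WB1P was highest in fraction 1, at 839 CPM, against 515, 526 and 563 CPM, and this is the shallowest library, with 49 tumor cells.

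The set was also seen in data outside the comparisons. Among the 1053 barcodes that no marker list placed, 24 had an Rgs5 UMI. They carried Acta2 at 657 CPM, Tagln at 281 CPM, Myl9 at 246 CPM, Tpm1 at 575 CPM, Tpm2 at 199 CPM, Cnn2 at 141 CPM, Myh11 at 164 CPM and Des at 23.5 CPM, with 1 UMI each of Actg2 and Cnn1. The endothelial gene Pecam1 stood at 199 CPM in them. Leukocytes, set beside them, had 7.21, 3.60, 2.06, 120, 8.24 and 97.3 CPM of the first 6 genes, and no UMI of Myh11 or Des. These barcodes entered no comparison of the main text.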

How the results depend on the processing

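Between the models, no paired analysis was possible because each model is 1 sample, and no result comes from a test. Pericyte-like and other Col1a2-positive cells come from the same fractions, and their levels were set side by side within each fraction as a description only. Acta2, Myl9, Myh11 and Des were higher in pericyte-like than in other Col1a2-positive cells under every alternative that gave a value, with lowest log2 ratios of 0.91 (MiSeq tables), 1.82, 4.73 and 1.85 (a mural list of 2 UMIs defining the class). Tagln, Tpm1, Cnn1 and Actg2 were too, with lowest values of 0.45, 0.14, 0.30 and 0.50, while Tpm2 and Cnn2 were not. The MiSeq tables, with 13 pericyte-like cells, changed most: 1 gene at least 2-fold higher in pericyte-like than other Col1a2-positive cells and a median log2 ratio of 0.45, with Tpm2 at -0.33 and Cnn2 at -0.057; against tumor cells 5 of 5 genes and a median of 2.93; between the models 2 genes and a median of -1.32 in pericyte-like cells, and 0 genes and a median of -0.28 in the others, with Acta2 at 0.13 and Cnn2 at 0.44. Thinning to 600 UMIs gave 5 of 7 genes in pericyte-like over other cells, where 7 passed the minimum. The median of other Col1a2-positive over tumor cells was 3.86 with a 5-fold lead (8 genes), 3.80 thinned (6 genes), 3.69 with no minimum (10 genes) and 3.74 at 50 UMIs (8 genes). With fractions left out it was 3.20 to 3.82. The reported 3.20 is over 9 genes, with Myh11 at the minimum on 10 UMIs in each pool, so these medians are not all over the same genes. Genes differing 2-fold between the models in pericyte-like cells were 2 with a 5-fold lead, 3 by means of cell CPMs, 2 thinned and 0 to 1 with fractions left out. In the other cells they were 4 (median -1.17) when a mural list of 2 UMIs took 176 cells into the pericyte-like class, 2 each with any lead, by means of cell CPMs or with no minimum, and 1 to 3 with fractions left out (3 without WB1P fraction 3). Apart from the MiSeq contrast of the 2 stromal classes, the share of all genes was not taken under the alternatives, so nothing is read from these counts. Of 1027 values for single genes, 896 stayed within the counting interval of the reported value. Of the 1007 that are ratios, 26 changed sign: the 4 in the MiSeq tables given above, whose reported intervals left out 0, and 22 between the models in pericyte-like cells, 9 of them with a fraction left out, whose reported intervals included 0. Counting any barcode with 3 Rgs5 UMIs, or leaving out the highest cell of each model, were alternatives chosen after seeing the data and moved no count past 1.5 times. Cnn1, Des and Myh11 rest on 4, 16 and 47 UMIs in pericyte-like cells.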
